A study of Homo sapiens with 12 samples.

Results

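The mRNA was taken from pooled polysome fractions of sucrose gradients and sequenced in 12 libraries from 3 triple-negative breast cancer lines, with 2 libraries per group. In MDA-MB-231 and SUM159, cells carrying a TRMT112 shRNA (KD) were compared with their control cells (EV), and in BT549, cells with a TRMT112 expression construct (OE) were compared with cells carrying the empty vector (EV). TRMT112 is a cofactor that stabilizes and activates several methyltransferases, among them enzymes that modify ribosomal RNA and transfer RNA. The labels call the knockdown controls EV, while the methods describe a non-silencing shRNA. Knockdown cells and their controls were selected in puromycin, and BT549 cells of both groups in G418, and whether each group was a clone or a pool was not given. The 3 lines were grown in different media, with insulin and hydrocortisone for SUM159 only, so that line and medium cannot be told apart. Total RNA libraries were not analysed here, and fewer mRNA molecules in the cell and fewer of them on polysomes cannot be told apart either.

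Libraries held 22954226 to 27434677 estimated counts. All levels below are normalized counts, scaled for library size and composition, unless a per-length scale is named. A rise or fall is therefore relative to the other polysome mRNAs of a library, and amounts per cell were not measured. The paper reports smaller polysome peaks in both knockdowns and larger ones in BT549 OE. TRMT112 itself fell by 1.23 on the log2 scale in MDA-MB-231 KD and by 0.76 in SUM159 KD, and rose by 0.48 in BT549 OE (SE 0.04 in each line). All 4 mesenchymal markers examined were detected in every group, PGR was at 0 or close to 0, and ERBB2 mRNA was present at 1412 to 3360 normalized counts. The BT549 groups differed widely beyond the proteases. The summed mesenchymal markers were at 108850 to 108990 in BT549 EV and at 56114 to 57646 in OE, with VIM at a mean of 47400 and 17140. The summed level of 10 fibroblast markers was 18071 to 18566 in BT549 EV, where DCN, LUM and PDPN were at 0, and 146300 to 151740 in OE, where 10 of 10 were detected and THY1 (67170) and COL1A1 (56240) made up most of the sum. The sum of 7 epithelial markers went from 1446 to 1497 in BT549 EV down to 200.35 to 224.8 in OE, and GATA3 carried it (1380 and 167). Of 5 leukocyte markers 3 were measured, of which CD68 went from 4210 in BT549 EV to 165 in OE, CD14 from 13.2 to 88.5 and PTPRC from 5.51 to 3.35. In MDA-MB-231 the fibroblast sum was 323 to 359 in EV, with 2 of 10 markers detected, and 680 to 752 in KD, where PDGFRB was at 585 against 224 in EV. In SUM159 its members went in both directions, with THY1 at 664 in EV and 7096 in KD and COL1A1 at 7448 and 9751, but PDPN at 13560 and 8628 and PDGFRB at 241 and 104. The part of these markers in the protease values was not tested.

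Promoter sequence was shown for the membrane-anchored pair MMP14 and MMP15, whose levels were ordered differently across the lines, and for TIMP3, which was at 0 in one group only. The stretches are the 250 bases before the RefSeq start (GRCh38.p14), all on the plus strand, with the GC box GGGCGG on either strand in capitals. The MMP14 stretch lies at chr14:22836335-22836584, the MMP15 stretch at chr16:58025504-58025753 and the TIMP3 stretch at chr22:32801455-32801704.
MMP14: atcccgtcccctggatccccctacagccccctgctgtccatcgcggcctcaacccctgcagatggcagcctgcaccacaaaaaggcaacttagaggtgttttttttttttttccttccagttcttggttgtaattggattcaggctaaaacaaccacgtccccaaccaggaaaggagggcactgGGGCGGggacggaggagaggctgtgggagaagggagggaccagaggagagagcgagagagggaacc
MMP15: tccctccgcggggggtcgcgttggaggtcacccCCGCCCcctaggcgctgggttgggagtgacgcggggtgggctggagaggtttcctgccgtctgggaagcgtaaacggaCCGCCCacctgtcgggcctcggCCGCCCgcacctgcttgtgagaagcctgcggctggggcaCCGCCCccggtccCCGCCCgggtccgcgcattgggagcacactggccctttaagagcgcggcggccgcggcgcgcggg
TIMP3: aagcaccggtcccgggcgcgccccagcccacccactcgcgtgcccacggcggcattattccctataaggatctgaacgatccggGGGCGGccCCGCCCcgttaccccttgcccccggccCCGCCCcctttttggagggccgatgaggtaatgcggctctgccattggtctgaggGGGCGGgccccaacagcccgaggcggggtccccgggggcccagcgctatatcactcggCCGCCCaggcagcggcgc
The MMP14 stretch held 7 CpG dinucleotides and 1 GC box, the MMP15 stretch 31 and 5, and the TIMP3 stretch 26 and 5. The median over 35116 promoters was 11 CpG dinucleotides, and 80.4% of promoters had fewer than TIMP3. GGGCGG on either strand was present in 42.6% of all promoters of this length. Matches to the AP-1 motif TGANTCA (6.57% of all promoters) and to TATAAA (10.7%), each searched on both strands, were not present in these 3 stretches, nor in the TIMP1 stretch and the 2 PLAU stretches, which held 2 GC boxes in TIMP1 and 0 and 3 in PLAU. Sites that differ from these motifs by a base, or that lie outside the 250 bases, were not sought. MMP1, MMP2, MMP3, MMP9 and TIMP2 had no entry.

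Which proteases and inhibitors were on polysomes differed strongly between the lines before any change of TRMT112. The per-length scale used for comparing genes divides the count by transcript length and by library depth (FPKM). In MDA-MB-231 EV, TIMP1 was at 225 FPKM ± 0.203 (SD, n = 2), TIMP2 at 101 ± 1.42, PLAU at 42.9 ± 2.00, TIMP3 at 30.0 ± 1.80 and MMP14 at 23.3 ± 0.467, and MMP15 and MMP1 were at 1.66 ± 0.038 and 0.73 ± 0.126. MMP14 made up 90.3% of the summed FPKM of the 6 MMP genes in MDA-MB-231 EV and 89.9% in BT549 EV, but 7.7% in SUM159 EV, where MMP2 made up 83.8%. TIMP1 was the largest of the 3 inhibitors per length in all 6 groups, with shares between 51.5% and 63.3% of the summed TIMP level.

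**Figure D1:**
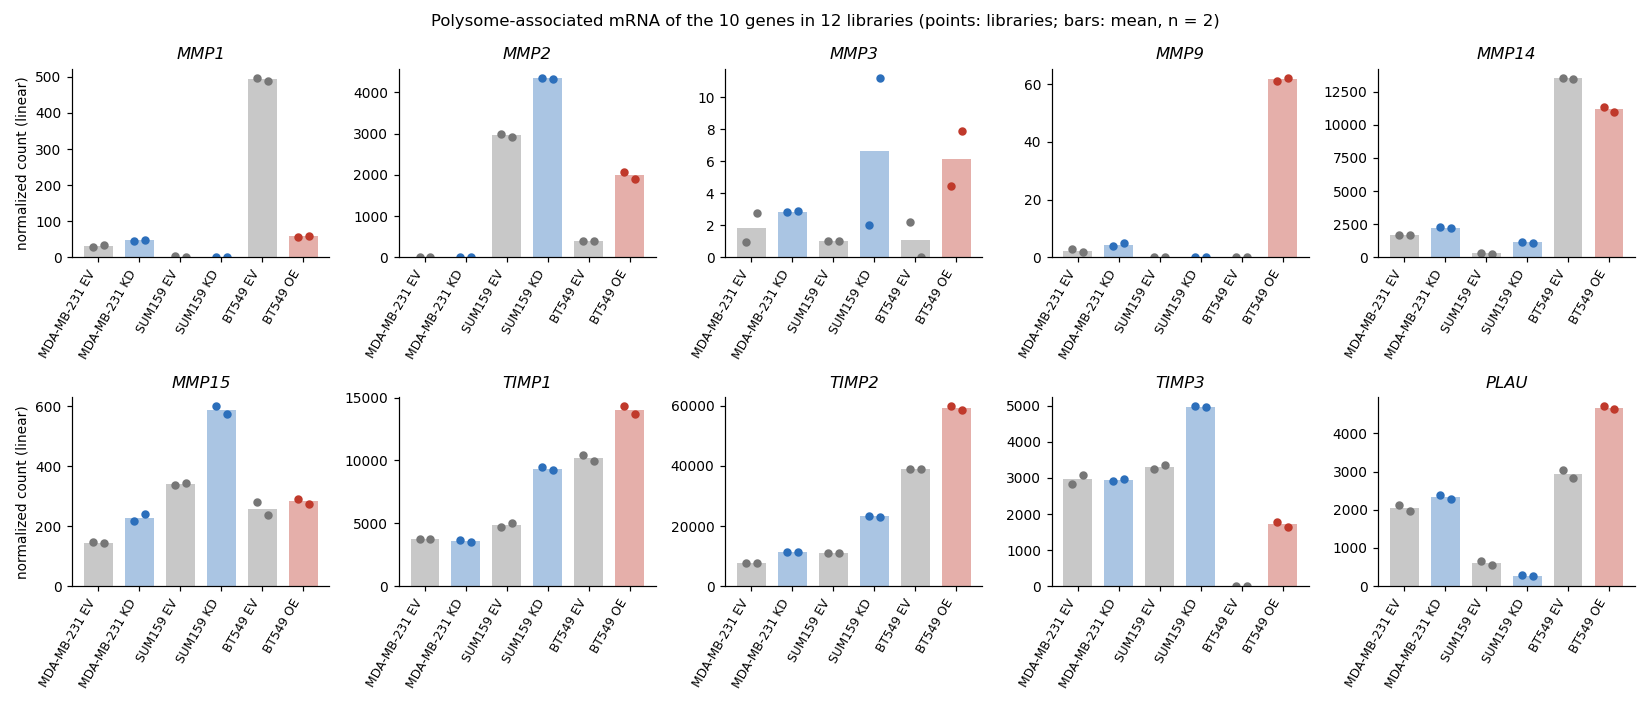
Normalized counts (linear scale, separate for each gene) of the 10 genes in the 6 groups, where points are libraries and bars the mean of 2. MMP2 is at 0 in all MDA-MB-231 libraries, TIMP3 and MMP9 are at 0 in BT549 EV and not in BT549 OE, and MMP14 is highest in BT549 EV.

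Among the secreted enzymes, MMP1, the interstitial collagenase, lies on the minus strand at chr11:102789401-102798160 (GRCh38). It was at 498 and 489 normalized counts in BT549 EV and at 27.3 and 34.7 in MDA-MB-231 EV, while SUM159 EV gave 3 counts in one library and 0 in the other. The BT549 EV level exceeded that of MDA-MB-231 EV by 3.99 on the log2 scale (SE 0.20, adjusted p = 1e-14, edgeR's quasi-likelihood test with Benjamini-Hochberg adjustment, as for every adjusted p below). Against the 3 counts of SUM159 EV, the ratio was 327 in BT549 (95% exact interval 111 to 1590, counting error only) and 20.5 in MDA-MB-231 (6.74 to 102). In BT549 OE, MMP1 was at 56.5 and 58.9, a fall of 3.10 on the log2 scale (SE 0.19, adjusted p = 6.43e-13), 8.55-fold. This level was near that of MDA-MB-231 KD, where MMP1 stood at 45.9 and 49.1. Those 2 libraries lay above both MDA-MB-231 EV libraries, but the difference of 0.61 (SE 0.26, unadjusted p = 0.027) did not pass adjustment (adjusted p = 0.0674). SUM159 KD gave 2 counts in each library, and no change of MMP1 was detectable there at this depth.

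MMP2, the 72 kDa gelatinase that MMP14 and TIMP2 help to activate, lies on the plus strand at chr16:55389700-55506691. It was at 0 counts in all 4 MDA-MB-231 libraries, which allows up to 3 counts in each. SUM159 EV held 3001 and 2908 normalized counts, at least 1062-fold above MDA-MB-231 EV, and BT549 EV held 405 and 384, at least 142-fold above it. The level rose in both lines that had the transcript. In SUM159 KD it was 4359 and 4320, a rise of 0.55 on the log2 scale (SE 0.04, adjusted p = 5.09e-10). In BT549 OE it was 2073 and 1908, a rise of 2.33 (SE 0.06, adjusted p = 2.24e-18), 5.04-fold. MMP2 thus went up in BT549 OE while the collagenase MMP1 went down in the same libraries.

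MMP9, the 92 kDa gelatinase, lies at chr20:46008908-46016561 on the plus strand. In BT549 it was at 0 counts in both EV libraries and at 60.9 and 62.3 normalized counts in OE, at least 18.6-fold higher. SUM159 held no count in any of its 4 libraries, and MDA-MB-231 held 3 and 2 counts in EV and 4 and 5 in KD, with no detectable change (adjusted p = 0.51). MMP9 overlaps the antisense transcript SLC12A5-AS1, which ranged from 0 to 23.3 counts and was above 3 only in BT549 OE, and whether the counting used strand was not given in the sources used here. The labels describe a poly(A) library and the methods a stranded total RNA kit. MMP3, stromelysin 1 (chr11:102835801-102843609, minus strand), had too few counts to be tested. It reached 13 counts in one SUM159 KD library and 7 in one BT549 OE library, against 2 and 4 in their replicates.

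The membrane-anchored enzymes were present in every library. MMP14, a collagenase at the cell surface and activator of MMP2, lies on the plus strand at chr14:22836560-22849041. Its EV levels were ordered BT549 (13575 and 13462), MDA-MB-231 (1648 and 1664) and SUM159 (296 and 272), a 47.6-fold distance between the first and the last. In SUM159 KD, MMP14 was at 1157 and 1101, a rise of 1.99 on the log2 scale (SE 0.06, adjusted p = 2.59e-18), 3.97-fold. MDA-MB-231 KD, at 2257 and 2212, showed a smaller rise of 0.43 (SE 0.04, adjusted p = 8.42e-09). In BT549 OE it stood at 11339 and 11008, a fall of 0.27 (SE 0.03, adjusted p = 2.87e-08). SUM159 KD still lay below the MDA-MB-231 EV level, and BT549 OE above every library of the other lines.

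The MMP14 counts were estimated over 8 annotated transcripts, of which the coding transcript ENST00000311852.11 held 91.8%. The 2 transcripts annotated as subject to nonsense-mediated decay together held 3.62% to 4.09% of the MMP14 counts in BT549 EV and 9.79% to 9.87% in OE. Their summed share was 4.09% and 4.1% in MDA-MB-231 EV and 5.48% and 6.08% in KD. The SUM159 groups overlapped, with shares of 8.62% and 6.36% for EV against 4.09% and 12.2% for KD. These shares are estimates between isoforms that have most of their sequence in common.

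MMP15, another membrane-type enzyme (chr16:58025754-58046901, plus strand), was less variable, with 4.05-fold between its highest and lowest group. In MDA-MB-231 it went from 148 and 142 in EV to 218 and 239 in KD (log2 fold change 0.66, SE 0.12, adjusted p = 0.000112). In SUM159 it went from 336 and 343 to 599 and 575 (0.79, SE 0.09, adjusted p = 1.27e-07). MMP15 was thus higher in KD than in EV in both lines. The difference between the rises was -0.13 (SE 0.15, adjusted p = 0.511), with an interval of -0.44 to 0.173 at 2 SE on either side. BT549 EV held 281 and 236 and OE 290 and 275. These groups overlapped, and the change was 0.13 (SE 0.11, adjusted p = 0.312, interval -0.094 to 0.349).

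**Figure D2:**
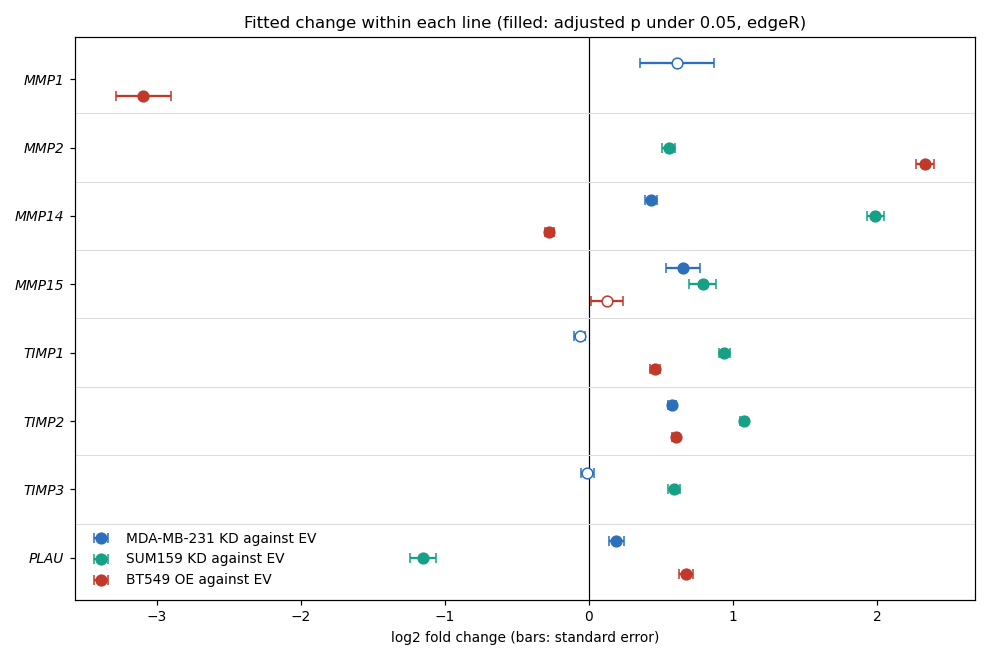
Log2 fold change of each gene within each line (x axis; points are edgeR estimates, bars 1 SE, filled where the adjusted p was under 0.05). Genes with a group at 3 counts or fewer have no point; SUM159 KD shows the rise of MMP14 (1.99) and the fall of PLAU (-1.15), and BT549 OE the fall of MMP1 (-3.10) and the rise of MMP2 (2.33).

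TIMP2 was the inhibitor that rose in all 3 lines. It lies on the minus strand at chr17:78852977-78925387. In MDA-MB-231 it went from 7553 and 7777 in EV to 11339 and 11505 in KD, a rise of 0.58 (SE 0.03, adjusted p = 6.6e-14). In SUM159 it went from 10978 and 11043 to 23450 and 22952, a rise of 1.08 (SE 0.03, adjusted p = 3.05e-20). In BT549 it went from 38989 and 39067 to 59796 and 58662 in OE, a rise of 0.60 (SE 0.02, adjusted p = 1.62e-16). Its most abundant transcript took between 57.9% and 73.9% of the TIMP2 counts in the MDA-MB-231 EV replicates, a spread that touches estimates per transcript and not the summed level. TIMP2 thus rose both where TRMT112 was lowered and where it was raised.

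TIMP1, an inhibitor of most secreted MMPs with growth-promoting activity of its own, lies on the plus strand at chrX:47582408-47586789. It went from 4739 and 4998 in SUM159 EV to 9459 and 9230 in KD, a rise of 0.94 (SE 0.04, adjusted p = 2.29e-16). In BT549 it went from 10473 and 9941 to 14300 and 13718 in OE, a rise of 0.46 (SE 0.03, adjusted p = 2.86e-11). MDA-MB-231 held 3755 and 3746 in EV and 3687 and 3479 in KD. The KD libraries were both lower, but the difference of -0.07 did not pass the test (SE 0.04, adjusted p = 0.205, interval -0.143 to 0.012).

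TIMP3, which binds to the extracellular matrix and also inhibits ADAM proteases, lies on the plus strand at chr22:32801705-32863041, within SYN3 on the opposite strand, a gene not analysed here. It was at 0 counts in both BT549 EV libraries and at 1777 and 1654 normalized counts in OE, at least 519-fold higher. By this pattern, with 0 counts in both EV libraries and at least 50 in both OE libraries, TIMP3 was 1 of 66 symbols and ranked 9 among them by count, and 28 symbols showed the reverse pattern. In MDA-MB-231 the corresponding numbers were 1 and 0, and in SUM159 0 and 5. Transcripts at 0 in all BT549 libraries are not in the table, and question marks in the columns of the other lines were read as 0. The numbers therefore cannot be compared between the lines. The GC-rich stretch printed above is the one before the TIMP3 start. TRMT112 itself was at a mean of 3081 normalized counts in BT549 EV and 4303 in OE. It was at 4042 in MDA-MB-231 EV and 6449 in SUM159 EV, and its part in the TIMP3 levels was not tested. The 2 other lines had TIMP3 in their EV cells. SUM159 EV held 3240 and 3367, at least 1000-fold above BT549 EV, and KD 4983 and 4963, a rise of 0.59 (SE 0.04, adjusted p = 3.42e-11). MDA-MB-231 EV held 2838 and 3078, and KD 2912 and 2960 lay between them (change -0.01, SE 0.04, adjusted p = 0.893, interval -0.099 to 0.076).

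PLAU, which lies at chr10:73909177-73917496 on the plus strand, moved in opposite directions in the knockdowns. In SUM159 it went from 655 and 562 in EV to 295 and 255 in KD, a fall of 1.15 on the log2 scale (SE 0.09, adjusted p = 7.91e-11). In MDA-MB-231 it went from 2117 and 1978 to 2381 and 2290, a rise of 0.19 (SE 0.05, adjusted p = 0.00636). That small rise was lost with library size scaling alone (0.10, adjusted p = 0.141), without EV replicate 2 (0.15, adjusted p = 0.101) and without KD replicate 1 (0.16, adjusted p = 0.0746). In BT549 it went from 3030 and 2830 to 4704 and 4644 in OE, a rise of 0.67 (SE 0.05, adjusted p = 2.27e-11). The antisense gene C10orf55 overlaps PLAU and ranged from 29 to 169 counts, and without strand the reads of both genes cannot be told apart.

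Counted over the 9 genes that passed the filter over all groups, 4 rose and 0 fell in MDA-MB-231 KD, where 37.7% of all 16538 genes tested were called, 21.2% higher and 16.5% lower. With library size scaling alone, 3 rose and TIMP1 fell there, and 36.7% in place of 56.2% of all calls were higher. In SUM159 KD, 6 rose and 1 fell, with 60.1% of all genes called (28.6% higher, 31.4% lower). In BT549 OE, 6 rose and 2 fell, with 70.6% of all genes called (35.6% higher, 35.0% lower). MMP9, one of the 6, passed the filter on low counts through BT549 OE alone, and with a minimum mean of 50 counts 5 of 8 genes rose and 2 fell there. The median log2 fold change of the 9 genes was 0.43, 0.59 and 0.60, against 0, 0 and 0.02 over all genes, and taking TIMP3 and MMP9 in BT549 at their lower bounds left the last of these at 0.60. Without MMP9 the medians were 0.31, 0.69 and 0.53. MMP2 in MDA-MB-231 and MMP9 in SUM159 were at 0 in all libraries of the line, so no change could be tested. They are among the 9 genes there and entered the medians as 0, MMP2 also in the median without MMP9. With each line fitted alone, 7 genes were tested in each of these lines. Of them 4 rose and 0 fell in MDA-MB-231 KD, and 6 rose and 1 fell in SUM159 KD. A change of at least 1 on the log2 scale was seen for 0 genes in MDA-MB-231 (3.20% of all genes), 3 in SUM159 (15.7%) and 4 in BT549 (31.3%). In SUM159 these were MMP14, TIMP2 and PLAU, and in BT549 MMP1, MMP2, MMP9 and TIMP3.

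The knockdowns differed between the lines for 5 of the 9 genes. Of all genes, 50.9% were called for this difference (27.7% with the larger value in MDA-MB-231, 23.2% with the larger value in SUM159). MMP2 was at 0 in all MDA-MB-231 libraries and MMP9 in all SUM159 libraries, and MMP1 had at most 3 counts in each SUM159 library. For these genes no difference could be seen, which does not make their knockdown effects equal. Among the others, only MMP15 was not called. The knockdown effect in MDA-MB-231 minus that in SUM159 was -1.56 for MMP14 (SE 0.07, adjusted p = 2.71e-14), -1.01 for TIMP1 (SE 0.05, adjusted p = 1.93e-13), -0.60 for TIMP3 (SE 0.06, adjusted p = 1.99e-08) and -0.50 for TIMP2 (SE 0.04, adjusted p = 4.23e-11). For PLAU it was 1.34 (SE 0.10, adjusted p = 1.62e-10). Each of these 4 MMP14 and TIMP changes was thus larger upward in SUM159, and PLAU was the gene with opposite directions. MMP14, TIMP1 and PLAU differed by at least 1 (15.0% of all genes). The TIMP2 difference was -0.05 (adjusted p = 0.918) when only its most abundant transcript was counted. TRMT112 fell further in MDA-MB-231 than in SUM159, and the part of this in the differences was not tested.

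Between the control groups, the comparison of MDA-MB-231 and SUM159 called 9 of 9 genes (75.7% of all genes), 4 higher in MDA-MB-231 (36.4% of all genes) and 5 lower (39.2%). With library size scaling alone and with DESeq2 it called 8, with 4 in each direction. Between BT549 and MDA-MB-231, 9 were called (79.5%), 7 higher in BT549 (39.1%) and 2 lower (40.4%). MMP9 was among them in both comparisons with MDA-MB-231 on no more than 3 counts per library (adjusted p = 0.0398 and 0.0439), and no fold is given. In the comparison of BT549 with MDA-MB-231, 8 were called and 1 was lower with DESeq2, without a filter, with a minimum mean of 50 counts, with the replicate number as a block and without any 1 library of these groups. Between BT549 and SUM159, 8 of 9 differed (78.4%), 5 higher in BT549 (37.7%) and 3 lower (40.7%). A difference of at least 1 on the log2 scale was present for 6 (36.9%), 7 (45.4%) and 7 genes (43.7%) in these comparisons, which use the same control libraries. With library size scaling alone the median of all genes was at -0.34 for BT549 against MDA-MB-231, where 38.4% in place of 49.1% of all calls were higher, and at -0.27 for BT549 against SUM159. The counts of 7 and 2 and of 5 and 3 genes were as before under that scaling. Over the 6 groups, MMP14 spanned 47.6-fold, PLAU 17.0-fold, TIMP2 7.73-fold and TIMP1 3.91-fold. Neighbouring groups in the order of levels overlapped for TIMP3 in MDA-MB-231 EV and KD, for MMP15 in MDA-MB-231 KD and both BT549 groups, and for MMP1 in both SUM159 groups.

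**Figure D3:**
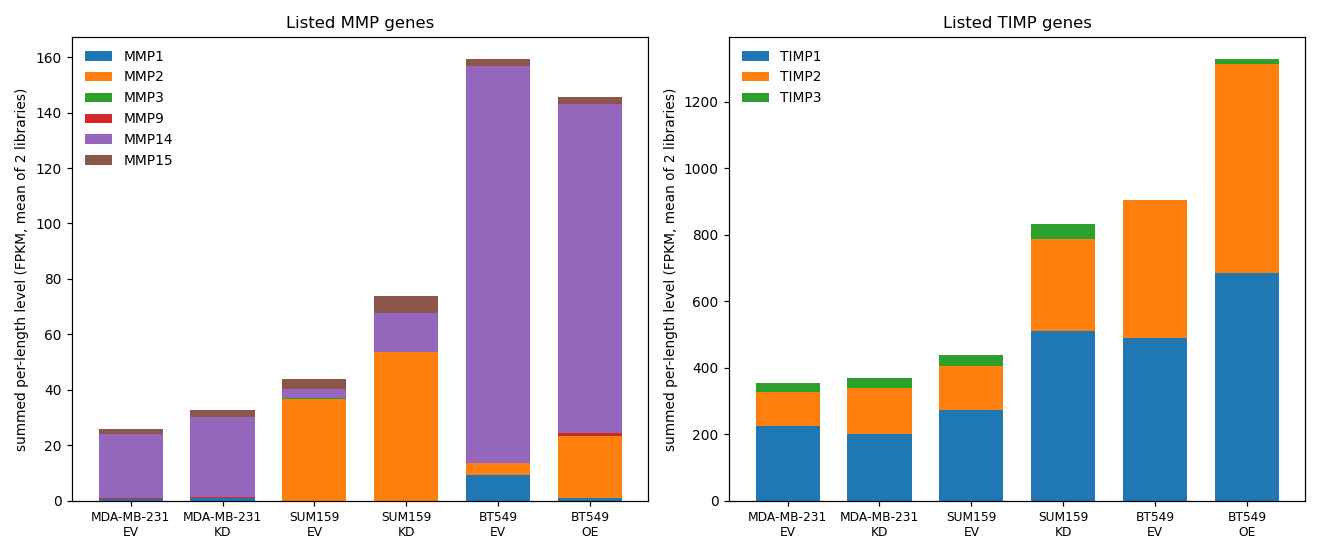
Summed per-length level (y axis, FPKM, mean of 2 libraries) of the 6 MMP genes and of the 3 TIMP genes in each group, stacked by gene. MMP14 fills most of the MMP bar in MDA-MB-231 and BT549 and MMP2 in SUM159; the TIMP sum is highest in BT549 OE.

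The summed level of the listed TIMP genes per summed level of the listed MMP genes was taken on the FPKM scale. It was lowest in BT549 EV at 5.76 and 5.59 and rose to 9.08 and 9.17 in OE, without overlap. In SUM159 it went from 9.63 and 10.3 in EV to 11.3 in both KD libraries. In MDA-MB-231 it went the other way, from 13.6 and 14.0 in EV to 11.4 and 11.2 in KD. The ratio of MMP14 to TIMP2 fell in BT549 from 0.345 and 0.348 to 0.19 and 0.187, and rose in SUM159 from 0.027 and 0.024 to 0.05 and 0.051. MDA-MB-231 changed less, from 0.237 and 0.226 to 0.212 and 0.206. With 2 libraries against 2, the smallest two-sided p an exact permutation test allows is 0.333, so these ratios were not tested. They compare mRNA levels, not active enzyme.

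**Figure D4:**
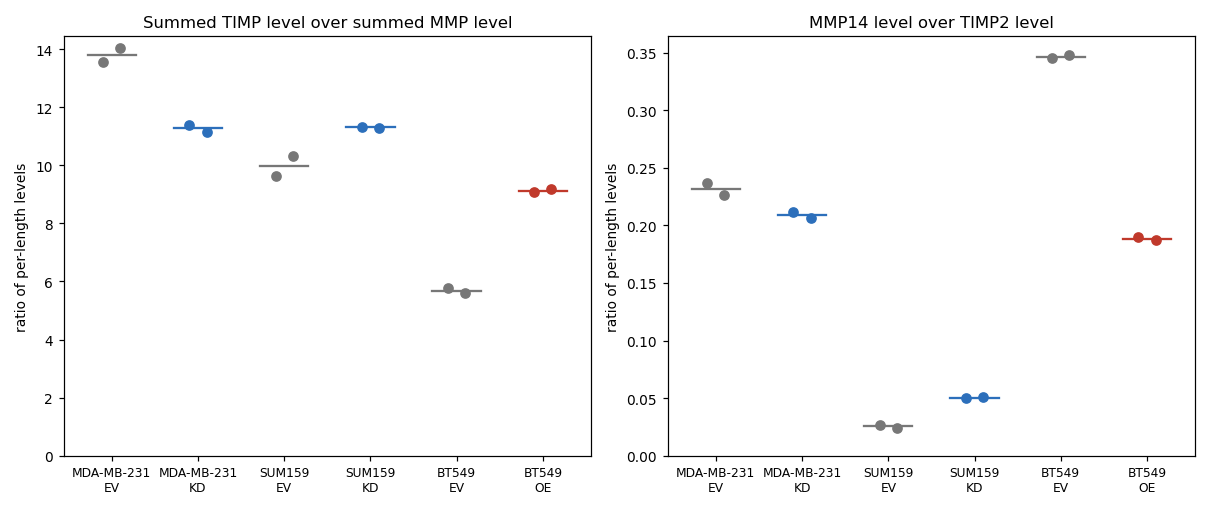
Ratio of the summed TIMP to the summed MMP per-length level (y axis, left) and of MMP14 to TIMP2 (y axis, right) in each library (points), with the mean of 2 as a line. BT549 OE libraries lie at 9.08 and 9.17 against 5.76 and 5.59 in EV on the left, and below EV on the right.

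The composition of the 6 listed MMP genes shifted with these changes. In SUM159, the MMP14 share of the summed MMP level was 7.7% in EV and 18.9% in KD, and that of MMP2 was 83.8% and 72.5%. In BT549, the MMP2 share was 2.7% in EV and 15.1% in OE, while that of MMP1 was 5.9% and 0.8%. MDA-MB-231 kept MMP14 as the main one of the 6, with 90.3% in EV and 88.8% in KD. Other MMP genes are not in these sums. In BT549 EV, MMP11, MMP17 and MMP16 were at 939, 920 and 742 normalized counts. On this scale these levels were above MMP1 (494) and MMP2 (395) and below MMP14 (13518). Normalized counts are not divided by transcript length, and the per-length order of these genes is not given.

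The genes around these proteases were examined in 5 lists. Of 18 other MMP and TIMP genes, 8 were tested: 2 rose and 0 fell in MDA-MB-231 KD, 2 and 2 in SUM159 KD, and 2 and 3 in BT549 OE, comparisons in which 37.7%, 60.1% and 70.6% of all genes were called. MMP16, a further membrane-type enzyme, rose in each comparison, by 0.71 in MDA-MB-231 (SE 0.25, adjusted p = 0.0245), 0.67 in SUM159 (SE 0.19, adjusted p = 0.00319) and 0.64 in BT549 (SE 0.09, adjusted p = 1.24e-06). Its normalized counts were low in MDA-MB-231, at 29.2 ± 3.97 (SD, n = 2) in EV and 48.1 ± 15.1 in KD, against 742 in BT549 EV. MMP17, anchored by a lipid tail, fell by 0.82 in SUM159 (SE 0.12, adjusted p = 3.99e-06) and by 0.51 in BT549 (SE 0.10, adjusted p = 5.91e-05).

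Of 12 tested genes of plasminogen activation, 4 rose and 2 fell in MDA-MB-231 KD (37.7% of all genes called), 4 and 5 in SUM159 KD (60.1%), and 2 and 5 in BT549 OE (70.6%). TFPI2, a serine protease inhibitor of the matrix, fell from 2887 ± 56.6 to 1083 ± 49.0 (SD, n = 2) in MDA-MB-231 KD, a log2 fold change of -1.41 (SE 0.05, adjusted p = 3.22e-15). It also fell in SUM159 KD (-1.52, SE 0.09, adjusted p = 5.01e-13) and in BT549 OE (-1.19, SE 0.07, adjusted p = 2.47e-13). PLAT, the tissue plasminogen activator, fell in SUM159 KD with PLAU, by 1.89 (SE 0.10, adjusted p = 3.3e-14), and rose by 0.49 in MDA-MB-231 KD (SE 0.10, adjusted p = 0.000494). SERPINE2, an inhibitor of plasminogen activators and thrombin, fell in SUM159 KD (log2 fold change -1.78, SE 0.16, adjusted p = 1.14e-09) and in BT549 OE (-1.61, SE 0.03, adjusted p = 8.17e-22).

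Of 14 tested regulators and activators of MMPs, 5 rose and 3 fell in MDA-MB-231 KD (37.7% of all genes called), 7 and 4 in SUM159 KD (60.1%), and 7 and 6 in BT549 OE (70.6%). PCSK6, a proprotein convertase, fell from 863 ± 26.1 to 10.5 ± 3.47 (SD, n = 2) in SUM159 KD (log2 fold change -6.32, SE 0.16, adjusted p = 1.85e-19), and also fell in MDA-MB-231 KD (-0.58, SE 0.09, adjusted p = 2.08e-05). In BT549 it was at 2.20 in EV and 74.5 in OE. CLDN1, a tight junction protein, fell in all 3 lines, with log2 fold changes of -0.69 (SE 0.12, adjusted p = 8.38e-05), -3.94 (SE 0.12, adjusted p = 2.54e-18) and -2.80 (SE 0.09, adjusted p = 1.29e-18) in MDA-MB-231, SUM159 and BT549.

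Of 16 tested ADAM and ADAMTS genes, which encode related metalloproteinases, 7 rose and 0 fell in MDA-MB-231 KD (21.2% of all genes higher, 16.5% lower), 7 and 4 in SUM159 KD (28.6% and 31.4%), and 10 and 6 in BT549 OE (35.6% and 35.0%). ADAMTS15 rose by 1.39 in MDA-MB-231 KD (SE 0.19, adjusted p = 2.5e-06), by 2.38 in SUM159 KD (SE 0.28, adjusted p = 8.99e-08) and by 1.90 in BT549 OE (SE 0.09, adjusted p = 1.51e-15). Of 13 AP-1 and ETS factors, transcription factors that bind many MMP promoters, 1 rose and 4 fell in MDA-MB-231 KD (37.7% of all genes called), and 4 and 7 in SUM159 KD (60.1%) and in BT549 OE (70.6%). JUN rose by 1.27 in SUM159 KD (SE 0.05, adjusted p = 6.34e-17) while JUNB fell by 1.51 (SE 0.06, adjusted p = 1.7e-16). In MDA-MB-231 KD and BT549 OE both fell, JUN by 0.14 (adjusted p = 0.0103) and 0.49 (adjusted p = 3.43e-11), and JUNB by 0.31 (adjusted p = 0.000187) and 0.64 (adjusted p = 1.8e-11). In BT549 OE, FOSL1 fell by 1.85 (SE 0.04, adjusted p = 2.31e-22), and in SUM159 KD it rose by 0.92 (SE 0.03, adjusted p = 1.64e-16).

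The genes whose group means ran most like those of each protease or inhibitor were sought among 12589 genes by Pearson's r over 6 group means, given as a description. The closest gene was SRSF1 for MMP14 (r = 0.999), AMD1 for MMP15 (0.986), RBFA for MMP2 (0.999) and CERS2 for MMP1 (0.998). Among the inhibitors it was ZBTB8A for TIMP1 (0.998), BRMS1 for TIMP2 (0.994) and GABARAPL2 for TIMP3 (0.997), and it was SLC47A1 for PLAU (0.999). No closest gene was another of the 10. These 6 points come from 3 lines, so that differences between the lines weigh on each r. TIMP3 was at 0 in BT549 EV alone, so that its r rests largely on that group. MMP9, which passed the filter through BT549 OE alone, is left out here.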

How the data were processed

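Polysome-associated mRNA was sequenced in 12 libraries, 2 per group. Per the methods, the authors used Trimmomatic for trimming, HISAT2 for alignment (GRCh38), SAMtools for removing duplicates and Partek for the later steps. The labels describe poly(A) enrichment and a NEBNext kit, the methods rRNA depletion and a stranded TruSeq total RNA kit, and which was used could not be settled. The counting tool, annotation and strand setting are not given in the sources used here. The deposited values are estimated counts per transcript (expected counts, mostly not whole: 3.1% of values above 0 were whole). In the 8 MDA-MB-231 and SUM159 columns the authors' file marks some values with a question mark, for 5.08% of 201932 transcripts, which were taken as 0, and none belonged to the 10 genes. Transcripts at 0 in all 4 BT549 libraries are not listed in the table. Transcripts were matched to GENCODE gene names (79.7% of them, with 99.25% to 99.41% of counts) and summed per symbol. There were 0 columns without a sample.

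Sums were rounded, filtered with filterByExpr (16538 genes), normalized (TMM) and put through quasi-likelihood fits in edgeR 4.0.16 over 6 group means and all 12 libraries (6 residual degrees of freedom) in R 4.3.3. Benjamini-Hochberg adjustment ran over all genes, and 0.05 was the threshold. Against groups at 0, a fold is a bound set by 3 counts per library. The labels do not say that replicates were separate cultures, so that p-values measure the spread between these samples, which may be technical. The intervals and bounds cover counting error only where they come from counts. FPKM used annotated transcript lengths. DESeq2 1.42.0, other scalings, filters, transcript choices and left-out libraries were alternatives. The members, gene lists and tests were chosen with earlier results of these data known. Of the listed genes, the 10 are all described, and in the other lists the 2 called genes with the largest change and a mean of at least 50 counts were eligible to be named. Some eligible genes, SERPINB6 and ANXA2 among them, are left out above. Some named genes are also given in comparisons where they were not eligible, such as FOSL1 in SUM159 KD. The tests were run on simulated counts with 100 genes changed by 0.5 and 100 by 1 on the log2 scale, as many up as down. Of these, 87% to 92% and 98% to 99% were called, and 2.62% to 5% of calls were unchanged genes. Few genes changed in the simulation and its libraries varied independently. It therefore does not check the scaling where many genes differ, nor replicates that may be technical.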

Additional observations from a re-analysis of the deposited data

Results flagged for a closer look

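For 5 genes the knockdown effect in MDA-MB-231 differed from that in SUM159 by a test of the difference itself (edgeR's quasi-likelihood interaction contrast, 2 libraries per group). The difference, MDA-MB-231 minus SUM159 on the log2 scale, was -1.56 for MMP14, where the level rose in both lines. It was -1.01 for TIMP1 and -0.60 for TIMP3, where the rise passed the test in SUM159 and not in MDA-MB-231. It was -0.50 for TIMP2, which rose in both lines, and 1.34 for PLAU, which rose in MDA-MB-231 and fell in SUM159. The same difference was called for 50.9% of all genes tested. The MDA-MB-231 rise of PLAU did not pass the test with library size scaling alone (0.10, adjusted p = 0.141). Nor did it with only the most abundant transcript counted (0.19, adjusted p = 0.0832), where the TIMP2 difference was -0.05 (adjusted p = 0.918). Leaving out each library in turn gave 5 genes called every time.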

How the results depend on the processing

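Of 405 fits of a gene under an alternative, 394 kept the direction and the side of the threshold, and the total of these genes called in each comparison stayed within 1.5 times, while the number lower in EV BT549 than in EV MDA-MB-231 went from 2 to 1 under 8 of the alternatives. TIMP3 in MDA-MB-231 changed sign around 0 with RLE scaling (0.0097), with DESeq2 (0.0098), without EV replicate 2 (0.0526) and without KD replicate 1 (0.002), in a range of -0.0704 to 0.0526 over the left-out libraries. MMP15 in BT549 did so without EV replicate 2 (-6e-04), in a range of -6e-04 to 0.2557. The causes were not tested. With library size scaling alone, TIMP1 in MDA-MB-231 passed the test (-0.16, adjusted p = 0.00146), PLAU did not (0.10, adjusted p = 0.141), and 36.7% in place of 56.2% of all calls were higher; the most abundant transcript alone took PLAU to adjusted p = 0.0832. That choice gave 3233 calls over all genes in place of 6240 in MDA-MB-231. Leaving out a library gave 3 to 4 genes called in MDA-MB-231, 7 to 8 in SUM159, 8 in BT549, 5 for the knockdown difference, and, between the EV groups, 7 to 8 for MDA-MB-231 against SUM159, 8 for BT549 against MDA-MB-231 and 7 to 8 for BT549 against SUM159, with the lone sample assumed to vary like the others. Over the length of the main transcript alone, the TIMP to MMP ratio was 15.2 and 12.3 in MDA-MB-231 EV and KD (13.8 and 11.3 otherwise), 11.6 in SUM159 KD, and 5.87 and 9.37 in BT549 EV and OE. With that length, 36 levels of a gene in a group stayed within their SD and 18 moved beyond it. MMP14 in MDA-MB-231 EV was at 20.9 in place of 23.3 FPKM, and PLAU in SUM159 KD at 4.97 in place of 6.25.

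Replicate numbers did not pair the samples: deviations of same-numbered libraries correlated at 0.02, -0.025 and 0.004 in MDA-MB-231, SUM159 and BT549. With the replicate block, 4, 7 and 8 of the genes were called in these lines, as without it, and 8 in place of 9 in EV MDA-MB-231 against SUM159 and against BT549. Depth limits MMP3, MMP9 outside BT549 OE and MMP1 in SUM159.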
